A study of Mus musculus with 4 samples.

Results

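CHD8 binding was examined at the 4 Hox gene clusters of mouse embryonic stem (ES) cells, as the deposited peaks that overlapped 4 windows of the mm9 genome. The windows were set by position, and the choice was made with earlier results of these data known. They were chr6:52080000-52280000 for HoxA (200 kb), chr11:96030000-96250000 for HoxB (220 kb), chr15:102730000-102890000 for HoxC (160 kb) and chr2:74480000-74630000 for HoxD (150 kb). They held 40 of the 22706 peaks of replicate 1 and 52 of the 31002 peaks of replicate 2. By cluster, HoxA held 8 and 12 peaks, HoxB 9 and 8, HoxC 17 and 23, and HoxD 6 and 9. All 4 clusters therefore held called CHD8 peaks in both replicates.

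The ES cells carried a homozygous 3xFLAG tag at the C terminus of CHD8, inserted at the gene's own locus, and were cultured on gelatin in 2i media. CHD8 was precipitated with the antibody ANTI-FLAG M2 in 2 ChIP samples, and 2 input samples without antibody came from ES cells in the same medium. Each ChIP sample had 1 list of peaks; values of the inputs themselves were not analysed here, and a ChIP from cells without the tag is not among the samples. No label says that the replicates were separate cultures, so their spread may be technical.

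Hox genes encode homeodomain transcription factors that set the identity of body segments along the head-to-tail axis. They stand in 4 compact clusters, which are switched on one gene after another along each cluster as the embryo develops. In ES cells most Hox genes are silent, and their clusters are known as long domains of Polycomb repression whose promoters can also carry active marks. CHD8 belongs to the CHD enzymes, which use ATP to move or evict nucleosomes; it is best known for binding near promoters and as a gene mutated in autism.

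The 38 Hox genes considered here were all found in a gene table of the GRCm38 assembly, 10 in HoxA, 10 in HoxB, 9 in HoxC and 9 in HoxD. Going from low to high coordinates in that table, HoxA ran from Hoxa2 to Hoxa13, whereas HoxB ran from Hoxb13 to Hoxb1, HoxC from Hoxc13 to Hoxc4 and HoxD from Hoxd13 to Hoxd1. The low-numbered genes of a cluster are in general expressed towards the head and the high-numbered ones towards the tail. The peaks are on mm9, for which no gene positions were used here, so no peak was assigned to a gene and peaks are named by position.

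**Figure D1:**
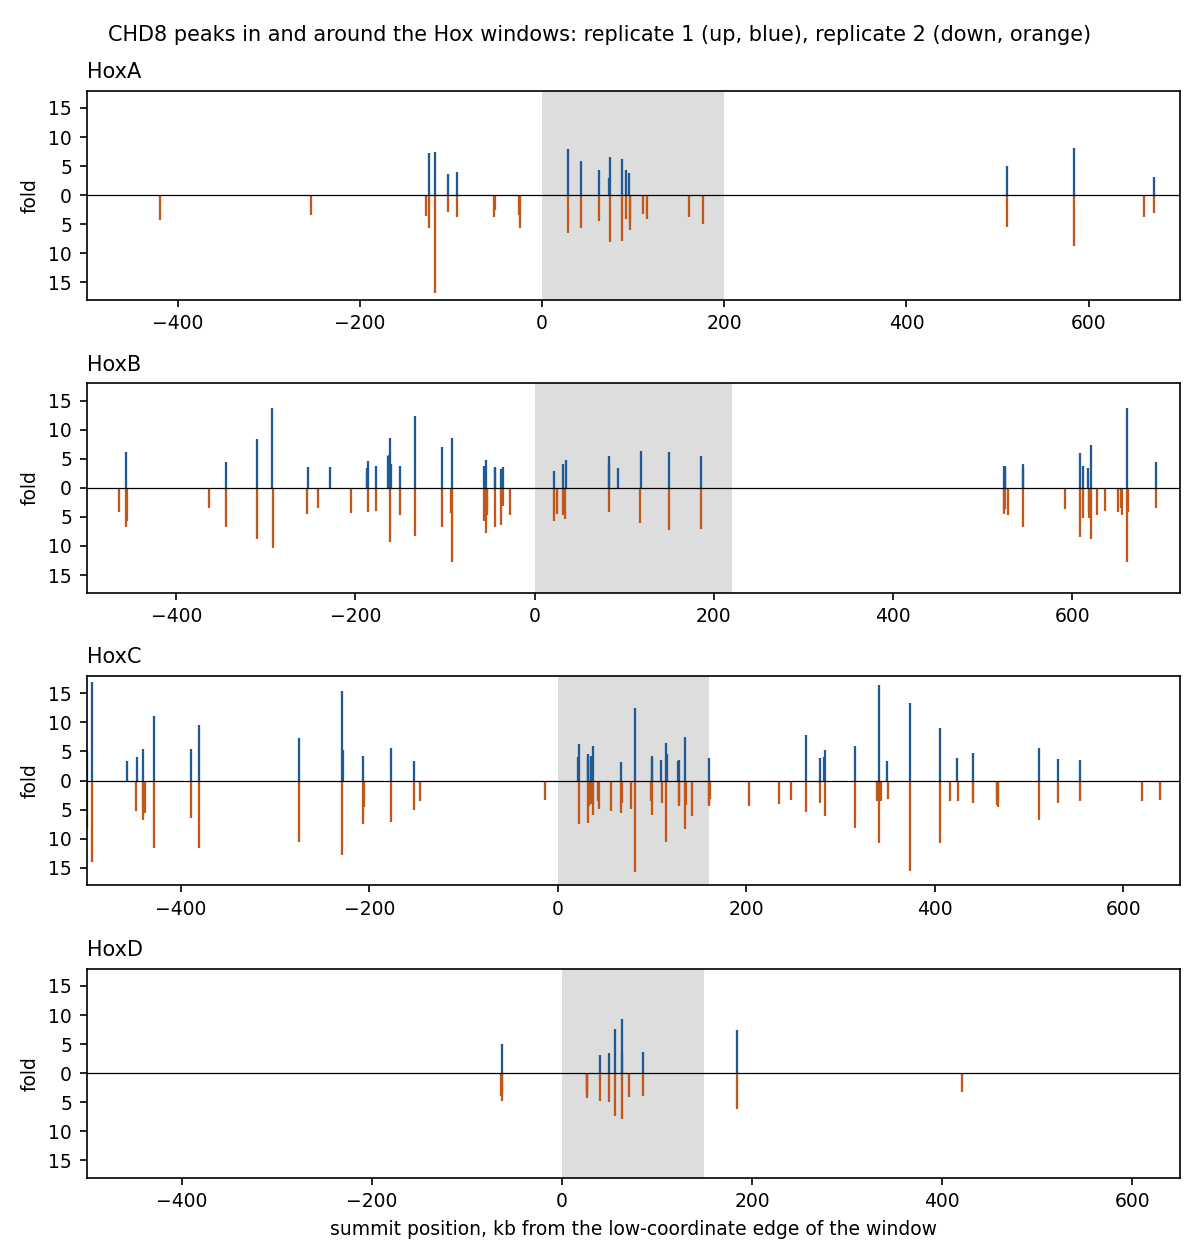
Peaks in and around each Hox window, drawn by distance from the window's start (x axis, kb); each line stands at a peak's summit and its length is the authors' fold enrichment, with replicate 1 upward, replicate 2 downward and the window shaded. Around HoxD only 2 and 5 peaks lie in the flanks, while the flanks of HoxB and HoxC hold 29 to 46 peaks in each replicate.

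The first comparison set each cluster against its own surroundings, the 500 kb on either side. CHD8 peaks were denser inside HoxA, HoxC and HoxD than beside them in both replicates, and in HoxB they were not. HoxD stood out of the emptiest surroundings, HoxC had the most peaks, and HoxB lay in a stretch that was as rich in peaks as the cluster itself. The 4 windows together held 54.8 peaks per Mb against 18.25 in their flanks in replicate 1, a ratio of 3.00 (95% exact interval 1.99 to 4.47). In replicate 2 they held 71.2 against 28 per Mb, a ratio of 2.54 (1.79 to 3.57). Over the stretches of chromosome that held peaks the lists had 8.86 and 12.1 peaks per Mb, so the flanks as a whole were also denser than the genome. The flanks of HoxD, at 2 and 5 per Mb, and those of HoxA in replicate 1, at 7, were sparser than the genome, and all others were denser.

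HoxD held 6 and 9 peaks in 150 kb, 40 and 60 per Mb, against 2 and 5 peaks in its 2 flanks together. These gave ratios of 20 (3.58 to 203) and 12 (3.61 to 45.6), wide intervals that reflect the few flank peaks. HoxA held 40 and 60 peaks per Mb against 7 and 15 in its flanks, ratios of 5.71 (1.81 to 18.5) and 4 (1.71 to 9.15). HoxC held 106 (61.9 to 170) and 144 (91.1 to 216) peaks per Mb against 29 and 46, ratios of 3.66 (1.89 to 6.89) and 3.13 (1.81 to 5.26). HoxB held 40.9 and 36.4 per Mb against 35 and 46, ratios of 1.17 (0.494 to 2.48) and 0.791 (0.322 to 1.69). The HoxB intervals include 1 and also a density more than 1.5 times that of its flanks, so a moderate excess there was not detectable with these numbers of peaks.

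By an exact conditional binomial test (two-sided, Benjamini-Hochberg over 10 tests), the excess passed the 0.05 threshold for HoxA (adjusted p = 0.00157 and 0.000952), HoxC (0.000149 and 7.58e-05) and HoxD (0.000181 and 3.91e-05). HoxB did not pass, with adjusted p = 0.723 in both replicates by the same exact test. Peaks lie in groups along chromosomes, so these p-values are too small, and the intervals cover counting error only. The background was therefore read from tiles of the same length laid end to end along the chromosomes, with the Hox regions not left out. Of such tiles 6.50% to 9.05% were denser than their flanks at an unadjusted p under 0.05 by the exact test, by window length and replicate (HoxA 7.31% and 8.67%, HoxB 7.59% and 9.05%, HoxC 6.50% and 7.84%, HoxD 6.54% and 7.53%). The p of the HoxD window was reached by 0.585% and 0.769% of tiles, that of HoxC by 0.631% and 0.921%, that of HoxA by 1.84% and 2.32%, and that of HoxB by 26.6% and 28.1%.

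The calls of single clusters in replicate 1 did not hold with only the 50% of the list with the higher −log10 q (the upper 50%). The ratios of HoxA, HoxC and HoxD in replicate 1 were then 5, 1.74 and 6.67 with adjusted p = 0.0511, 0.295 and 0.122 by the same exact test. They came from 4, 5 and 2 cluster peaks, while all 3 clusters still passed in replicate 2. With a −log10 q of at least 5, HoxA (7.5) and HoxC (2.68) still passed in replicate 1 and HoxD (6.67) did not. The size of the HoxD ratio depended on the flank, at 4.71 and 3.75 with flanks of 1 Mb, where both still passed.

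**Figure D2:**
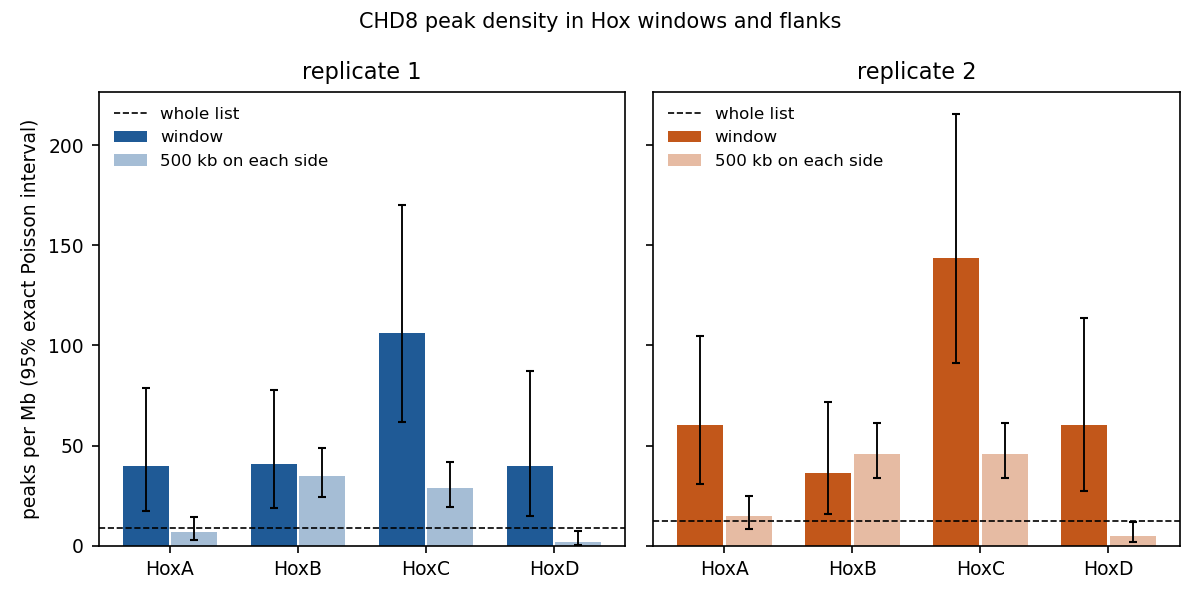
Peak density (y axis, peaks per Mb) inside each Hox window and in its flanks, by replicate; bars of error are 95% exact Poisson intervals and dashed lines give the whole list's density. Window and flank are far apart in HoxA, HoxC and HoxD, and lie together in HoxB, at 40.9 against 35 and 36.4 against 46 peaks per Mb.

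Whether a cluster's ratio differed from another's was tested directly, a comparison added after the ratios were seen. The HoxB ratio was 0.058 and 0.066 times that of HoxD (adjusted p = 0.00614 and 0.000618, exact conditional test over 12 pairs), 0.205 and 0.198 times that of HoxA (0.0401 and 0.0140) and 0.319 and 0.253 times that of HoxC (0.0401 and 0.0126). Between HoxA, HoxC and HoxD no pair passed the exact test, with adjusted p from 0.0569 to 0.645. This test also counts peaks as independent, so its p-values are too small where peaks lie in groups. No background from tiles was read for it. The differences of HoxB from HoxA and HoxC did not pass in either replicate when peaks under 1 kb apart were counted once. In 36 alternatives the HoxB ratio stayed the lower one, but 24 of them missed the threshold, including all 6 each with the upper 50% of the lists, with a −log10 q of at least 5 and with flanks of 250 kb.

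HoxC stood apart from stretches of equal length by its number of peaks alone. Of all tiles of 160 kb, 44.0% and 48.3% held at least 1 peak (48.5% and 52.8% at the length of HoxA, 50.6% and 54.8% of HoxB, 42.7% and 47.1% of HoxD), and 0.175% and 0.138% held at least the 17 and 23 peaks of HoxC. With peaks under 1 kb apart counted once, a setting added after the values were seen, HoxC held 10 and 13, and 0.575% and 0.382% of tiles held at least as many. For the other clusters such counts were less rare: at least as many peaks as in HoxA were held by 5.47% and 4.38% of tiles, as in HoxB by 5.10% and 11.4%, and as in HoxD by 6.45% and 4.85%. The peaks of HoxC also covered more of it, 6.10% and 11.7% of its bases, against 2.15% and 3.34% in HoxA, 2.18% and 3.52% in HoxB and 2.24% and 3.90% in HoxD. In the flanks of HoxC 2.61% and 3.95% of bases lay under peaks, and in those of HoxD 0.156% and 0.256%.

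**Figure D3:**
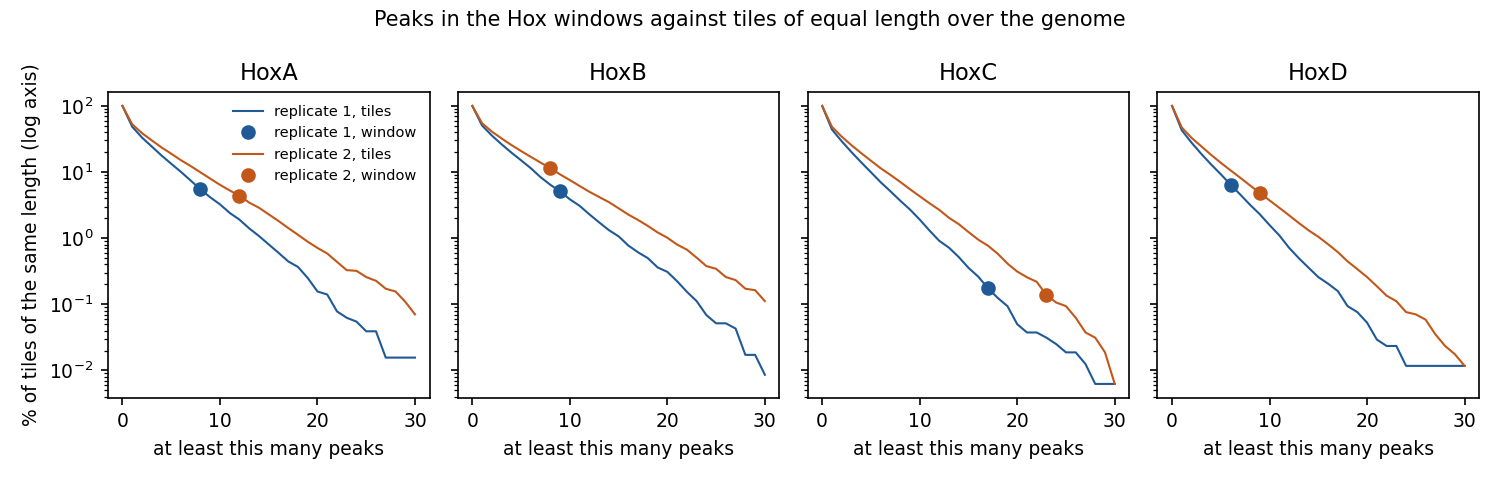
Share of genome tiles (y axis, percent, log scale) holding at least the number of peaks on the x axis, for tiles of each window's length, by replicate; the marker on each curve is the Hox window. HoxC lies far down its curve, at 0.175% and 0.138%, and the other windows lie between 4.38% and 11.4%.

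HoxD, the cluster needed for limb and genital patterning besides the trunk, had 5 sites found by both replicates. Below, the fold enrichment of a peak is the authors' ratio of ChIP reads at its summit to the caller's local control background. In this ratio 1 is added to both numbers, and the ChIP reads of replicate 2 are scaled by 0.714. The reads at the summit were recovered from the deposited values and are given unscaled. Intervals of folds cover the counting error of the ChIP reads only. The strongest site, chr2:74542192-74544165, had 40 reads and a fold of 9.24 (6.66 to 12.5) in replicate 1 and 43 reads and 7.93 (5.81 to 10.6) in replicate 2, with the summit at the same base. The next, 74535551 to 74536496, had folds of 7.66 and 7.33. Both replicates placed these 2 sites first in HoxD, and their intervals overlap between replicates.

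The other shared HoxD sites were weaker: 74520163 to 74520580 at 3.07 and 4.71, 74529479 to 74530394 at 3.48 and 4.91, and 74565036 to 74565496 at 3.69 and 3.91. A second peak of replicate 1 beside the strongest site, 74543513 to 74543909 (3.48), fell inside the single replicate 2 peak there. Replicate 2 alone called a group of 3 peaks between 74505790 and 74506947, at folds of 3.71, 4.31 and 3.29, and 1 at 74549827 to 74550617 (4.11). In each replicate 1 HoxD peak lay above the midpoint of the window, towards Hoxd1 in the GRCm38 order, against 5 and 8 below it, towards Hoxd13.

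Around HoxD the nearest peaks were far off and the same in both replicates. On the low side 103 and 88.4 kb without a peak separated the cluster's outermost peak from the next, at 74416640 to 74417159 in replicate 1 (4.96) and 74416977 to 74417374 in replicate 2 (4.71). On the high side it was 98 kb in both, up to a peak at 74663456 to 74664496 (7.43) in replicate 1 and 74663375 to 74664605 (6.12) in replicate 2. Gaps between neighbouring peaks had a median of 23.3 and 14.5 kb, and 20.5% and 17.0% of all gaps were as long as that on the low side and 21.3% and 15.6% as that on the high side; such gaps were not rare.

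HoxA, the cluster whose genes act in limb, gut and blood formation, had 7 shared sites, all below the midpoint of its window, towards Hoxa2. The site at chr6:52108043-52109126, the lowest in coordinates, was the strongest of replicate 1 with 34 reads and a fold of 7.88 (5.53 to 10.9), and had 35 reads and 6.50 (4.6 to 8.94) in replicate 2. The strongest of replicate 2, 52153590 to 52154750, had 28 and 46 reads and folds of 6.53 and 8.06. Another site, 52166822 to 52168020, had 6.15 and 7.94. The order among these 3 thus changed between replicates, while their intervals overlapped.

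The 4 remaining shared HoxA sites were 52122432 to 52122926 at folds of 5.86 and 5.61, 52141942 to 52142340 at 4.28 and 4.51, 52171485 to 52172162 at 4.28 and 4.18, and 52175721 to 52176263 at 3.78 and 5.92. A further replicate 1 peak, 52153590 to 52153928 (2.91), was part of the second-named site and the weakest HoxA peak of that replicate. The replicates differed above the midpoint of HoxA, towards Hoxa13: replicate 1 called no peak there, and replicate 2 called 4. These stood at 52190347 to 52190553 (3.29), 52195575 to 52195823 (4.11), 52240911 to 52241238 (3.71) and 52255986 to 52256438 (4.91), and with 52176488 to 52176705 (4.25) they were the 5 HoxA peaks of replicate 2 without a partner. The 8 and 12 peaks of HoxA lay in 67.9 kb in replicate 1 and in 148 kb in replicate 2.

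Above the outermost HoxA peak came the longest empty stretch next to the peaks of any of the 4 clusters in replicate 1. Its length was 413 kb and 333 kb, as far as a peak at 52589467 to 52590711 (4.96) and 52589494 to 52590664 (5.43), and 5.92% and 5.12% of gaps in the lists were as long. Of this length 104 and 23.6 kb lay inside the window, and past its edge 309 kb were free in both replicates. On the low side the free stretch was 122 and 51.6 kb, up to peaks at 51986077 to 51986313 (4.05) and 52054935 to 52056455 (5.61), and 17.7% and 25.8% of gaps were as long. The best flank peak of HoxA by −log10 q was the same low-side site in both replicates, called at 51961820 to 51963811 (fold 7.44) and at 51961732 to 51963843 (fold 16.8). On the high side it was 52663365 to 52664470 (8.11) and 52663384 to 52664627 (8.74).

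HoxC, which patterns the trunk and tail and the skin's appendages, had 11 shared sites spread on both sides of the midpoint of its window, with 8 and 13 peaks below it towards Hoxc13 and 9 and 10 above it towards Hoxc4. The site at chr15:102811327-102812764 was the strongest of all 4 clusters in both replicates. It had 54 reads and a fold of 12.4 (9.36 to 16.1) in replicate 1, rank 1098 of the list by −log10 q. In replicate 2 it had 77 reads and 15.8 (12.5 to 19.7), rank 676, with summits 20 bp apart. It was the only cluster peak among the top 10% of replicate 1.

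The second of HoxC was 102864410 to 102865476 in replicate 1 (7.43, against 8.34 in replicate 2) and 102843831 to 102846328 in replicate 2 (10.6, against 6.53 in replicate 1). Each came next after that in the other replicate. The latter was 1 peak in replicate 2, where it had 51 reads, and 2 peaks in replicate 1, the higher with 28 reads. The weakest HoxC peaks by −log10 q had folds of 3.38 in replicate 1, at 102764679 to 102764878 and 102857829 to 102858028, and 3.50 in replicate 2, at 102772803 to 102773058 and 102828342 to 102828806. Folds in HoxC spanned 3.25 to 12.4 and 3.50 to 15.8, the widest range among the clusters in both replicates.

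HoxC peaks were also the most crowded, with 7 and 10 neighbouring pairs less than 1 kb apart against 0 to 2 in each other cluster. Counting such neighbours once left 10 and 13 peaks in HoxC. Its ratio to the flanks was then 2.31 in replicate 1 (adjusted p = 0.0364 by the exact test), with a 95% interval that included 1 and reached up to 4.93, and 2.32 in replicate 2 (1.13 to 4.50, adjusted p = 0.0261). On the high side HoxC had no empty border: the next peak began 0.584 kb past the window in replicate 1 (102890585 to 102890905, 3.96) and 0.014 kb past it in replicate 2 (102890015 to 102890360, 4.11), and these lie outside the counts above by that distance. The free stretch there, from the outermost cluster peak, was 25.1 and 17.5 kb, and 48.5% and 46.6% of gaps were as long; on the low side it was 173 and 34.6 kb, up to peaks at 102577292 to 102577632 (3.38) and 102716169 to 102716368 (3.27), a length reached by 13.1% and 33.4% of gaps. In replicate 1 the flanks of HoxC held peaks above its best, such as 102235083 to 102237252 (16.9) and 103069656 to 103071900 (16.4). In replicate 2 the best flank peak, 103102697 to 103104179 (15.6), was level with the best of the cluster.

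HoxB, whose genes act in the hindbrain and in blood stem cells among other tissues, had 7 shared sites. The strongest in replicate 1 was chr11:96147695-96148612 with folds of 6.31 (4.23 to 9.07) and 5.96 (4.16 to 8.32), and in replicate 2 it was 96179737 to 96180756 with 6.08 (4.05 to 8.81) and 7.33 (5.19 to 10.1). Another site, 96215719 to 96216360, had 5.41 and 7.13 and was the highest in coordinates in both replicates. Intervals of these 3 sites overlapped, so their order was not resolved.

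The other shared HoxB sites were 96051228 to 96051928 at 2.82 and 5.79, 96060873 to 96061594 at 4.10 and 4.69, 96063812 to 96065206 at 4.73 and 5.43, and 96111989 to 96114394 at 5.47 and 4.10. The last was 2 peaks in replicate 1 and 1 of 2406 bp in replicate 2. Only replicate 1 called 96123019 to 96123249 (3.38), and only replicate 2 called 96055190 to 96055600 (4.51). Both replicates left the same stretch between 96065207 and 96111988 without a peak, the longest between 2 peaks of a window in any of the 4 clusters. Of all gaps, though, 35.3% and 27.5% were as long as the 47.0 and 46.8 kb free there. Longer free stretches lay between an outermost peak and the window's edge. They were 104 kb on the high side of HoxA in replicate 1, and 64.5 and 64.6 kb on that of HoxD. The longest inner gaps of the other clusters were shorter, and 53.8% and 28.3% of gaps were as long as that of HoxA, 45.2% and 48.7% as that of HoxC and 51.8% and 50.1% as that of HoxD.

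On its low side, towards Hoxb13, HoxB was followed by 24 and 27 flank peaks, with the next peak 56.4 and 48.9 kb from its outermost peak, at 95994666 to 95995075 (3.6 in fold) and 96002002 to 96002337 (4.64), a distance reached by 31.4% and 26.7% of gaps. On its high side, towards Hoxb1, no peak was called for 337 kb past its outermost peak in both replicates, up to 96553525 to 96553802 (3.83) and 96553215 to 96553454 (3.91). Of this stretch 33.7 and 33.6 kb lay inside the window, and 7.25% and 5.07% of gaps were as long as the whole of it. The flank value of HoxB thus joins a rich low side with a high side whose 11 and 19 peaks all lay beyond that stretch. The best peaks of these flanks exceeded every HoxB peak, at folds of 13.7 in replicate 1 (95736776 to 95737984 on the low side, 96690712 to 96692256 on the high side) and 12.8 in replicate 2 (95936495 to 95938289 on the low side, 96690568 to 96692419 on the high side).

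**Figure D4:**
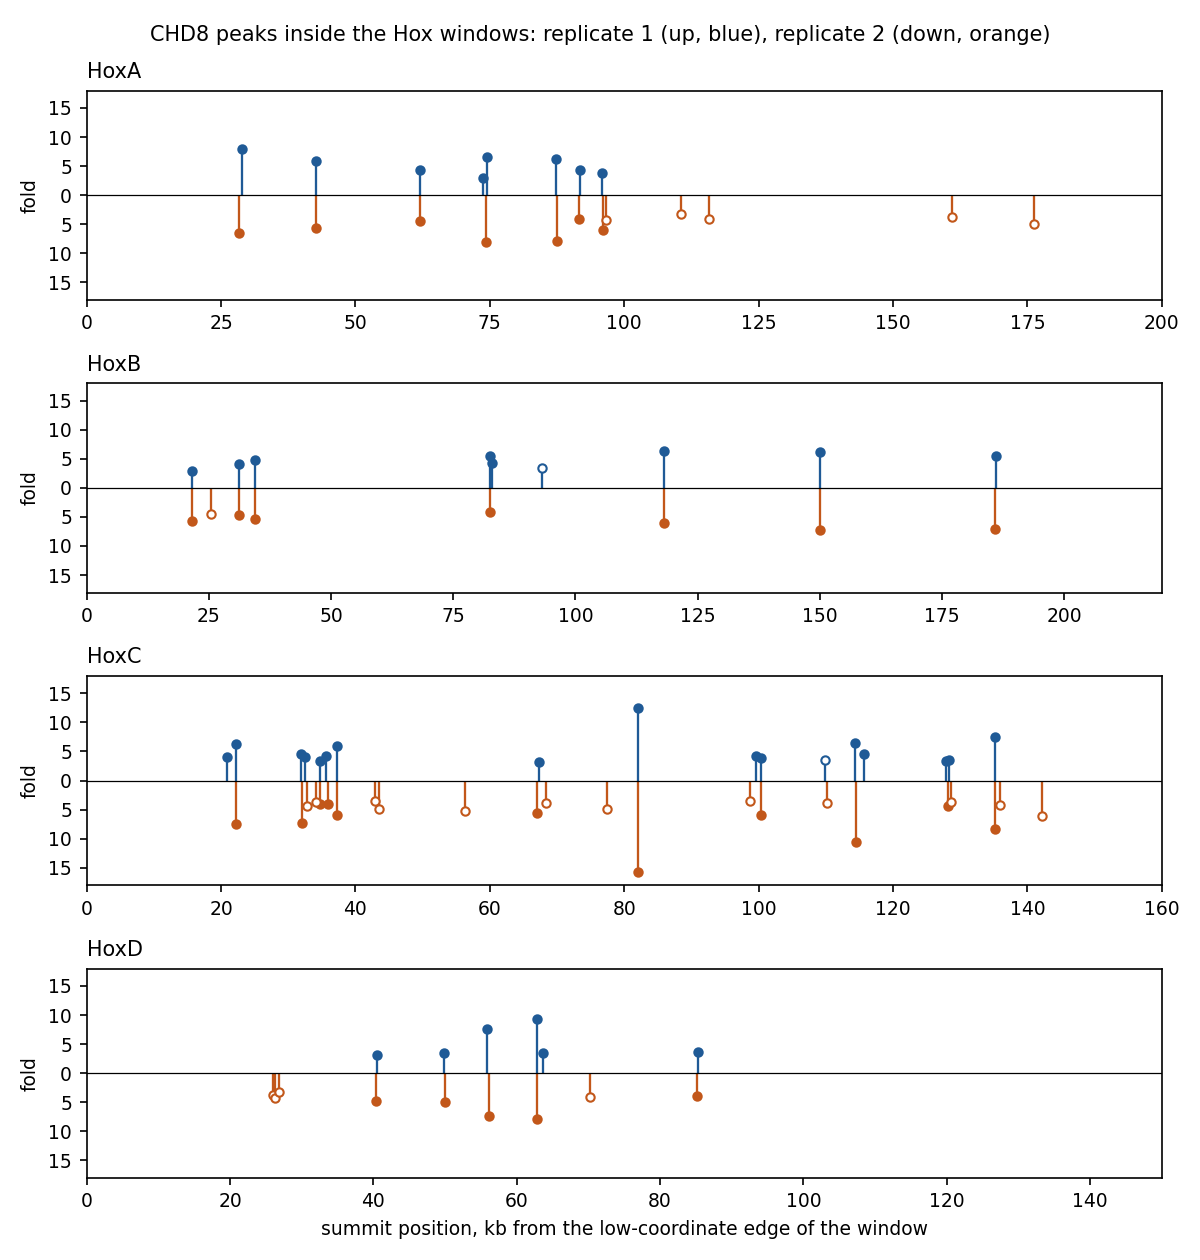
Fold enrichment (y axis, the authors' values) of every peak inside each Hox window by position from the window's start (x axis, kb), with replicate 1 upward, replicate 2 downward, filled symbols for peaks found in both and open symbols for the others. HoxA peaks of replicate 1 all lie below the midpoint, HoxD peaks gather below it, and the HoxC site with folds of 12.4 and 15.8 stands above the rest.

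The peaks of the clusters were of ordinary strength for their lists. Their median fold was 4.28 and 4.81, against 4.67 and 4.51 in the flanks and 4.51 and 4.71 in the whole lists. Above the list's median −log10 q stood 16 of 40 and 28 of 52 cluster peaks. In the top 10% of the list by −log10 q stood 1 of 40 (2.50%, Wilson interval 0.443% to 12.9%) and 2 of 52 (3.85%, 1.06% to 13.0%), against 13.7% and 11.6% of flank peaks. The intervals of the cluster shares include 10%, so a shortage of strong peaks was not resolved.

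The share of cluster peaks wider than 1 kb differed between the replicates. It was 4 of 40 (10%) and 16 of 52 (30.8%), against 22.3% and 25.5% of the lists, and carries no interval here. Of the 30 shared cluster sites, 8 held more than 1 peak of replicate 1 and none held more than 1 of replicate 2. The part of this division in the widths was not tested. The control background of the caller was at its genome-wide floor for most cluster peaks. It lay above that floor at 12 of 40 (30%, Wilson interval 18.1% to 45.4%) and 16 of 52 (30.8%, 19.9% to 44.3%), against 47.0% and 41.3% of the lists and 52.1% and 47.3% of the flank peaks. The highest values were 1.97 and 1.96 times the floor, both in HoxB.

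The replicates shared the cluster peaks about as often as other peaks. With an overlap of at least 1 bp, 38 of 40 replicate 1 peaks (95%, Wilson interval 83.5% to 98.6%) had a partner in replicate 2, against 89.1% of the whole list and 91.8% of the flank peaks. Of the replicate 2 peaks, 30 of 52 (57.7%, 44.2% to 70.1%) had one, against 60.9% and 54.5%. The 2 replicate 1 peaks without a partner were the HoxB peak named above and a HoxC peak at 102839800 to 102840003 (3.6), whose nearest replicate 2 peak (102840021 to 102840337, 3.83) began 17 bp past its end.

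At the 30 shared sites of the clusters, replicate 2 had more reads at the summit per depth in 29, with a median ratio of 1.3 (range 0.993 to 1.93). This was also the rule over the 17867 shared sites of the genome, where 88.4% were higher in replicate 2 and the median ratio was 1.25. By cluster the median ratio was 1.18 in HoxA, 1.40 in HoxB, 1.31 in HoxC and 1.04 in HoxD, each over 5 to 11 sites. The 95% counting interval of the ratio included 1 at 28 of the 30 sites. Over the shared sites of the genome this share is not given here. The exceptions were the HoxB site 96060873 to 96061594, with 19 and 38 reads and a ratio of 1.93 (1.09 to 3.54), and the HoxC site 102843831 to 102846328, with 28 and 51 reads and 1.76 (1.09 to 2.89). Both intervals include the genome's median ratio of 1.25, so neither site was set apart from the general shift towards replicate 2.

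Positions matched as closely in the clusters as in the genome, with a median of 97 bp between the summits of a shared site against 95 bp. The sites differed more in how they were divided: 8 of 30 cluster sites (26.7%) held more than 1 peak of replicate 1, 5 of them in HoxC, against 11.7% of the sites in the genome, and none held more than 1 peak of replicate 2, against 5.41%. These shares were not tested.

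**Figure D5:**
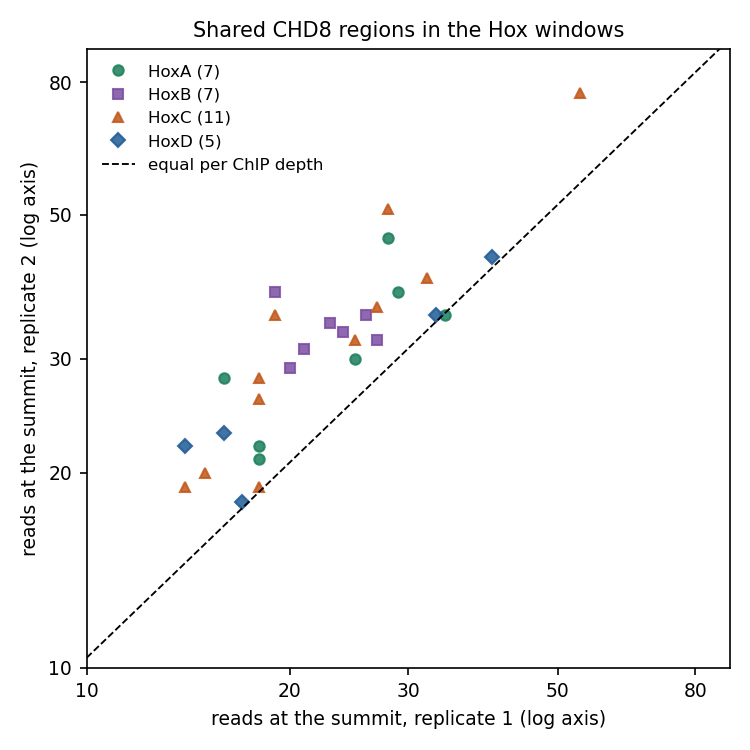
Reads at the summit (log axes) in replicate 1 (x axis) and replicate 2 (y axis) at the 30 shared sites, with a colour and symbol for each cluster and a dashed line where the reads per ChIP depth are equal. All sites but 1 lie above the line, and the HoxC site with 54 and 77 reads is the highest in both replicates.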

How the data were processed

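CHD8 ChIP-seq peaks of 2 samples were analysed. Libraries were made by tagmentation, per the labels' protocols; Bowtie2 2.1.0, MACS2 2.1.1 and mm9 are named, per the submitters' processing notes. The control behind each list and any filter were not given in the sources used here. The lists were deposited per sample. The deposited fold enrichment is a linear ratio at the summit. Deposited significances are −log10 p-values and −log10 q-values, and the deposited score is 10 times −log10 q rounded down, as found in 100% of peaks. All are the authors' values, used within a list.

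Reads at a summit were solved from fold and p by MACS2's formulas (misfit in log10 p under 0.002 for all peaks); the same procedure recovered 100% of read numbers in lists simulated with these formulas, which does not test the formulas. ChIP depth came to 3.44 and 3.56 reads per 200 bp, and the ChIP of replicate 2 was scaled by 0.714. Per depth means divided by these values.

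A peak belonged to a window from 1 bp of overlap. Tiles of a window's length covered each chromosome between its outermost peaks, Y left out. Shares carry Wilson intervals, densities and folds exact Poisson intervals. The fold intervals vary the ChIP reads and hold the control background fixed, so they leave out its counting error and are too narrow. Every peak of a window was to be named where it held 10 or fewer, otherwise the 3 best by −log10 q and the weakest; in the flanks the best and the nearest. Windows, gene list and tests were chosen with earlier results of these data known. Python 3.11.15, scipy 1.17.1, numpy 2.4.6, pandas 2.3.3 and matplotlib 3.10.9 were used.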

Additional observations from a re-analysis of the deposited data

How the results depend on the processing

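Of the 10 density comparisons, 8 passed the threshold with the settings of the report, 8 with flanks of 250 kb or 1 Mb, 7 with a −log10 q of at least 5 and 5 with the upper 50% of each list. Replicate 1 lost the calls of HoxA (ratio 5), HoxC (1.74) and HoxD (6.67) with the upper 50%, and that of HoxD (6.67) with a −log10 q of at least 5. The HoxB ratio of replicate 2, not called in any setting, turned from 0.791 to 1.45 with the upper 50%, 1.3 with a −log10 q of at least 5, 1.04 with peaks under 1 kb apart counted once and 1.27 with peaks found in both replicates only. The last setting, that without peaks of a control background of 1.5 times the floor or more, and the test between clusters were chosen after seeing the data. The causes were not tested. The share of cluster peaks with a partner was 45.0% and 34.6% with 50% reciprocal overlap. It was 92.5% and 70.7% with lists of equal length, and 100% and 57.1% with the upper 50%. Shares of the whole lists are not given here at these settings. The comparison of cluster peaks with other peaks thus holds for an overlap of at least 1 bp only. Leaving out either replicate changes no density value, since each list was tested alone, and both gave 4 calls of 5. No paired analysis was possible because the input samples, which share the replicate numbers of the ChIP samples, have no table here. Windows with 6 to 23 peaks leave ratios uncertain by several fold, and an anti-FLAG ChIP without the tag was not analysed here.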

Other observations

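At a few sites the replicates differed in the caller's control background as well as in the ChIP reads. At the flank site below HoxA (chr6:51961732-51963843 in replicate 2), 57 and 82 reads at the summit gave folds of 7.44 and 16.8, with the control background at 1.97 times its genome-wide floor in replicate 1 and at the floor in replicate 2. At the HoxB site chr11:96051228-96051928, 21 and 31 reads gave folds of 2.82 and 5.79, with backgrounds of 1.97 and 1.18 times the floor. At the HoxB site 96111989 to 96114394, 24 and 33 reads gave folds of 5.47 and 4.10 with backgrounds of 1.04 and 1.96 times the floor. These sites were picked after their values were seen. The control backgrounds carry no interval here, so their differences may be counting error. How often such differences occur over all shared sites was not counted.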
